A study of Mus musculus with 2 samples.

Results

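The 10 integrated stress response genes described here are Atf4, Atf5, Ddit3, Xbp1, Trib3, Ddit4, Sesn2, Chac1, Asns and Psat1, out of 55536 annotated genes. They were chosen as known genes of the pathway and partly chosen by the measured difference in Chac1 between the replicates, so the Chac1 contrast is given as a description with no test. The RNA came from the gastrocnemius, the large muscle of the calf, of adult male mice of the strain 5xFAD/CAST, which the labels also write as 5xFAD X Cast, at an age of 8 to 10 months. The 5xFAD transgenes are mutant human genes of familial Alzheimer's disease under the neuronal Thy1 promoter, while CAST denotes a wild-derived inbred strain. The series held 1 group of 2 libraries, biological replicates 2 and 1, from separate biosamples under 1 donor entry. Animals without the transgenes were not analysed here, and the sources do not state whether the replicates were separate animals. With 1 library a side no p-value can be drawn, and each mean ± SD is over n = 2 libraries.

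In the integrated stress response, several kinases phosphorylate the translation initiation factor eIF2 when amino acids run short, when misfolded protein gathers in the endoplasmic reticulum, or under mitochondrial or viral stress. Most protein synthesis then slows, while the mRNA of the transcription factor ATF4 is translated more, and ATF4 with its partners switches on genes for amino acid synthesis, redox control and, under lasting stress, cell death. In muscle the response is best known in mitochondrial disease, where it drives the secreted factors FGF21 and GDF15.

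Replicate 2 held 35412240 expected counts on genes and replicate 1 held 35163970. An expected count is the number of reads assigned to a gene after reads that match several genes are divided, and TPM is the count per length scaled to the same total in each library. All 8 muscle fibre markers were present, with a summed level of 103369 TPM in replicate 2 and 107324 TPM in replicate 1. Their direction turned with the scaling. All 8 were lower in replicate 2 on TPM, but all 8 were higher by scaled counts (5 of 8 with library totals). The 9 endothelial markers summed to 62.95 TPM in replicate 2 and 86.07 TPM in replicate 1, and all 9 were lower in replicate 2 under each scaling tried. The 8 adipocyte markers summed to 158.17 and 219.05 TPM in replicates 2 and 1, with 7 of 8 lower in replicate 2 by scaled counts (6 of 8 with spike-in totals and in the kallisto-layout table). The 7 smooth muscle and pericyte markers summed to 121.41 and 155.71 TPM in replicates 2 and 1, with 5 of 7 lower by scaled counts and 7 of 7 on TPM. No marker of these lists was listed at 0. In whole muscle, fewer cells of a type and less RNA per cell cannot be told apart.

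The 10 genes covered a 77.2-fold range of mean TPM. Atf4 stood highest, followed by Atf5, Chac1, Xbp1, Ddit3, Ddit4, Sesn2, Asns, Trib3 and Psat1. In both libraries 6 of the 10 reached 1 TPM. The sum over all 10 was 184.74 TPM in replicate 2 and 175.5 TPM in replicate 1. Of the 9 neighbouring pairs in this order, 4 had values that did not overlap between genes: Atf4 above Atf5, Xbp1 above Ddit3 by 3.09-fold, Ddit3 above Ddit4, and Ddit4 above Sesn2 by 5.16-fold. The other 5 neighbouring pairs overlapped, so Chac1 could not be ordered against Atf5 or Xbp1, nor Asns against Sesn2 or Trib3, nor Trib3 against Psat1. Further apart in the order, Atf5 lay above Xbp1 in both libraries, and Sesn2 lay above Trib3 and Psat1. The step from Sesn2 to Trib3 was narrow, with the lower Sesn2 value at 0.92 TPM and the higher Trib3 value at 0.90 TPM. In the kallisto-layout table the values of Sesn2 and Psat1 overlapped. The transcription factors thus took 3 of the highest 4 places and the amino acid enzymes Asns and Psat1 stood near the bottom.

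**Figure D1:**
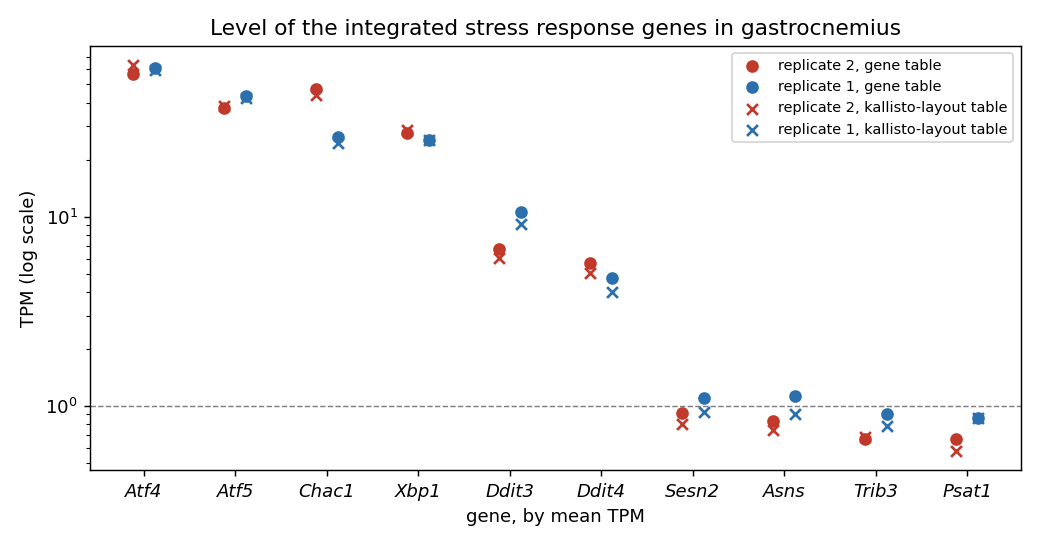
The plot gives the TPM of each integrated stress response gene in replicate 2 (left point of each pair) and replicate 1 (right point) on a log scale, with genes in order of mean TPM and a dashed line at 1 TPM. Atf4, at 56.9 and 61.3 TPM, is highest, the pair of Chac1 points is the widest in TPM, and Asns, Trib3 and Psat1 lie around or below the dashed line.

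Between the libraries the genes did not move together. The contrast is the log2 ratio of replicate 2 over replicate 1 of rounded counts, scaled with TMM factors and a prior of 0.5 counts, so a positive value means more in replicate 2. Intervals are exact binomial 95% intervals of the counts. They cover counting error only, because 1 library a side does not measure variation between libraries. Reads are also not independent molecules, which the intervals do not allow for. The ratio was above 0 for 5 genes and below 0 for 5. That split was 7 above and 3 below with spike-in totals, and 3 above and 7 below on deposited TPM, where the median of all genes itself lay at -0.13. The median over the 10 genes was -0.00047, against 0.0016 for the 9742 genes whose mean count was at least 100.

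Of the 6 genes whose mean count reached 100, Chac1 was the only 1 higher in replicate 2 by at least 1.5-fold, against 0.636% of all 9742 such genes. None of the 6 was lower by 1.5-fold, against 0.595% of all genes, and none differed by 2-fold in either direction, against 0.298%. At a mean count of at least 10, which takes in all 10 genes, Trib3 was 1 of 10 lower by 1.5-fold, against 4.70% of 14370 genes. The interval left out 0 for 4 of the 10 genes, against 20.9% of the same 14370 genes. Those were Chac1, Xbp1 and Ddit4, with more in replicate 2, and Ddit3, with less. Chac1 helped to choose the genes through this contrast, so its place in this count and in the 1.5-fold count was given in advance. Without Chac1, none of the genes whose mean count reached 100 passed 1.5-fold.

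**Figure D2:**
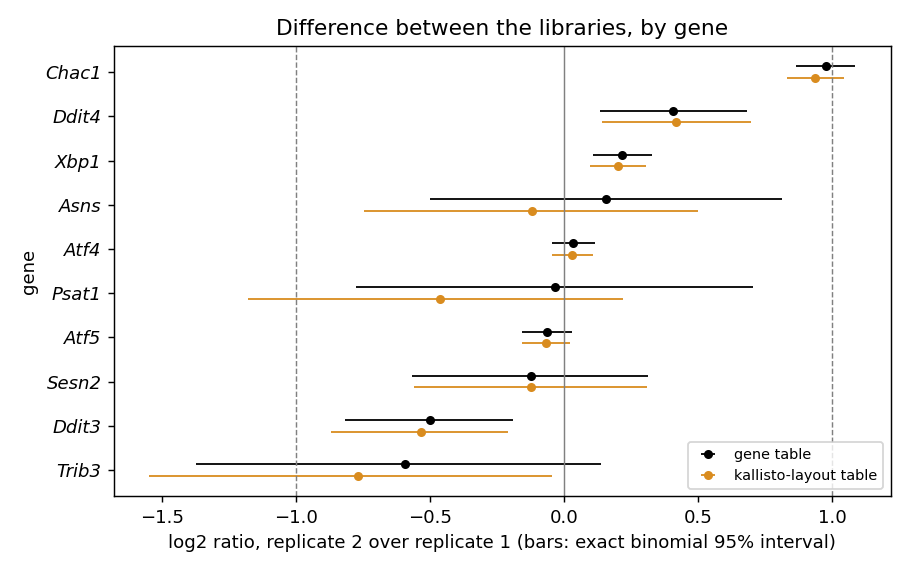
The plot gives the log2 ratio of replicate 2 over replicate 1 for each gene, from the gene table and from the kallisto-layout table, with exact binomial 95% intervals as bars. Chac1 lies near 1 in both tables, Ddit3 lies below 0, and the intervals of Asns, Trib3 and Psat1 are wide because these genes had few counts.

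**Figure D3:**
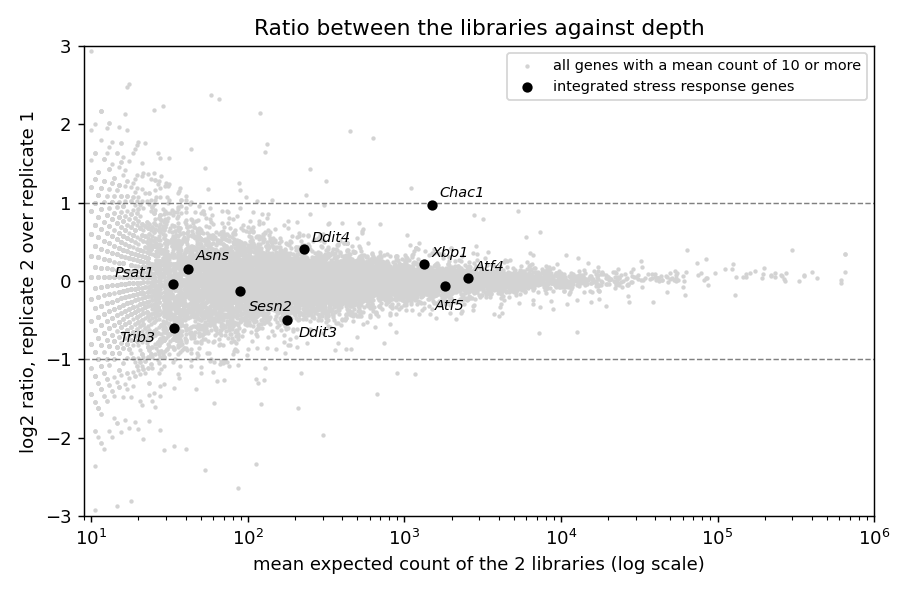
Each grey point is a gene whose mean count reached 10, placed by its mean expected count (x axis, log scale) and its log2 ratio of replicate 2 over replicate 1 (y axis), and black points are the integrated stress response genes. The dashed lines mark 2-fold, and 53 genes lie outside the plotted range. Chac1 stands at the edge of the cloud for its count, at 0.98, and the other 9 genes lie nearer to 0.

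Atf4, the central transcription factor of the response (ENSMUSG00000042406.8, mm10 chromosome 15, 80255184 to 80257541, plus strand), had 56.9 TPM in replicate 2 and 61.3 TPM in replicate 1. Its expected counts were 2525 in replicate 2 and 2556 in replicate 1. The libraries were close, with a log2 ratio of 0.03 and an interval of -0.05 to 0.11. Its mean TPM was higher than that of 90.9% of the 11409 genes with a mean of at least 1 TPM.

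Atf5, a related factor that is under the same kind of translational control and is tied to the mitochondrial stress response (ENSMUSG00000038539.15, chromosome 7, 44812256 to 44816658, minus strand), had 37.6 TPM in replicate 2 and 43.2 TPM in replicate 1. The log2 ratio was -0.06 with an interval of -0.16 to 0.03, turning positive with spike-in totals. Atf4 exceeded Atf5 by a similar factor in both libraries, 1.51 in replicate 2 and 1.42 in replicate 1. The annotated span of Atf5 overlaps that of Nup62 by 571 bases and that of Il4i1 by 272 bases, both on the opposite strand. Nup62 had 430 counts in replicate 2 and 510 in replicate 1. The sources do not state whether counting used strand.

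Ddit3, which encodes CHOP, the factor linked to cell death under lasting stress (ENSMUSG00000025408.15, chromosome 10, 127290774 to 127296288, plus strand), had 6.73 TPM in replicate 2 and 10.5 TPM in replicate 1. Its counts were 145 in replicate 2 and 213 in replicate 1. It was thus lower in replicate 2, opposite in direction to Chac1, with a log2 ratio of -0.50 and an interval of -0.82 to -0.19. On deposited TPM it passed 1.5-fold. Its annotated span overlaps that of Mars, the methionyl-tRNA synthetase gene, by 68 bases on the opposite strand. Mars had 1513 counts in replicate 2 and 1533 in replicate 1, close to level. An additional gene entry of the same symbol was listed at 0 in both libraries.

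ATF4, ATF5 and CHOP are known for short upstream reading frames in the mRNA leader, the stretch before the coding sequence, through which ribosomes reach the main start when eIF2 is phosphorylated. In the main coding transcripts of the GENCODE M21 annotation, Atf4-201 had 3 upstream ATG triplets in a leader of 594 bases, and the frame of 1 of them overlapped the coding sequence. Atf5-201 had 2 in 373 bases, 1 of them with an overlapping frame, and Ddit3-201 had 2 in 186 bases with no overlap. Asns-201 also held 2, Xbp1-201, Sesn2-201 and Psat1-205 held 1 each, and the leaders of Chac1, Ddit4 and Trib3 held none. At least 1 upstream ATG was found in 7 of the 10 genes, against 48.1% of 10330 expressed coding genes, and an overlapping frame in 3 of 10, against 15.9%. The median leader over those genes was 156 bases, shorter than that of each of the 10, and the counts were not matched on leader length.

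Xbp1, the factor that raises the folding capacity of the endoplasmic reticulum (ENSMUSG00000020484.18, chromosome 11, 5520659 to 5525893, plus strand), had 27.8 TPM in replicate 2 and 25.5 TPM in replicate 1. Its counts of 1416 in replicate 2 and 1263 in replicate 1 gave a log2 ratio of 0.22 with an interval of 0.11 to 0.33. Xbp1 belongs to the IRE1 branch of the unfolded protein response, in which the kinase and nuclease IRE1 cuts a short internal piece out of the mRNA so that the active factor is made. The cut lies within paired CNGCAGC motifs, which a search of Xbp1-201 found once at a spacing of 26 bases. The stretch is shown because it decides what these tables can tell about Xbp1. It covers transcript bases 797 to 858 of Xbp1-201 in the GENCODE M21 sequence, on chromosome 11, with the 26 bases between the cut sites in capitals.
Xbp1-201: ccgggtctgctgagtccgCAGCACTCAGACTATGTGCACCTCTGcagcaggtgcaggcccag
Of the 4 annotated Xbp1 transcripts, 3 held the 26 bases, the retained-intron Xbp1-202 did not, and none held the flanks joined without them. The cut mRNA therefore has no entry of its own in the tables, and the deposited levels do not separate it from the uncut mRNA.

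Chac1 encodes an enzyme that breaks down glutathione and is a target of ATF4 (ENSMUSG00000027313.3, chromosome 2, 119351229 to 119354381, plus strand). It had 47.0 TPM in replicate 2 and 26.3 TPM in replicate 1, from 1961 and 1033 counts. The mean was 36.6 ± 14.6 TPM, the widest SD of the 10 genes. The log2 ratio was 0.98 with an interval of 0.87 to 1.09, which is the difference that helped to choose the genes. It ranked 17 from the top of 9742 genes, a description only, because this value helped to choose the genes. Of the 1668 genes with counts within 1.5-fold of its own, a set that includes Chac1, 2 had a ratio at least as high, counting Chac1 itself. Its direction held under every scaling tried, between 0.84 on deposited TPM and 1.07 with spike-in totals, and the kallisto-layout table gave 0.94.

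The genes around Chac1 did not share its difference. The TPM of Chac1 was 0.826 of that of Atf4 in replicate 2 and 0.429 in replicate 1. Relative to Ddit3 it was 6.98-fold in replicate 2 and 2.50-fold in replicate 1. Chac2, which encodes a related glutathione-degrading enzyme, ran the other way, with 6.25 TPM in replicate 2 and 8.75 TPM in replicate 1. The Chac1 difference came together with the lower endothelial, adipocyte and pericyte marker sums of replicate 2 given above. Marker sums of other cell types were lower in replicate 2 as well, with 22.28 TPM in replicate 2 and 30.59 TPM in replicate 1 for Schwann cells. They were 20.91 and 26.1 TPM for satellite cells and 299.77 and 369.92 TPM for erythroid cells, in replicates 2 and 1. The part of these markers in the Chac1 difference was not tested.

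ATF4 acts with C/EBP partners on a composite element, and the promoters of all 10 genes were matched in the RefSeq table (GRCm38.p6), giving 12 windows because Atf5 and Psat1 each had more than 1. Over the 250 bases before each start, both strands were searched for the composite element written TGATGNAA, the cyclic AMP response element TGACGTCA and the XBP1 and ATF6 element TGACGTGG. TGATGNAA was present in 3.45% of all 32851 promoters, TGACGTCA in 1.55% and TGACGTGG in 0.563%. Among the 10 genes the composite element was found in Chac1 and Asns, and the other motifs in none. The windows of these 2 genes are shown because they carry that match, in capitals, with Chac1 at chr2:119350992-119351241 on the plus strand and Asns at chr6:7693210-7693459 on the minus strand. The Chac1 match is read on the opposite strand as TGATGCAA and begins at position -193 from the start, while the Asns match TGATGAAA begins at position -23.
Chac1: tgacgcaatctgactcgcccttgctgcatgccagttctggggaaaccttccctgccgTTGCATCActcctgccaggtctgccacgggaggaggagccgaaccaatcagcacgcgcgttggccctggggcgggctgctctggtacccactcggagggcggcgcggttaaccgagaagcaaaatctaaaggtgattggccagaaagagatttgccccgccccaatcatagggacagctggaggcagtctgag
Asns: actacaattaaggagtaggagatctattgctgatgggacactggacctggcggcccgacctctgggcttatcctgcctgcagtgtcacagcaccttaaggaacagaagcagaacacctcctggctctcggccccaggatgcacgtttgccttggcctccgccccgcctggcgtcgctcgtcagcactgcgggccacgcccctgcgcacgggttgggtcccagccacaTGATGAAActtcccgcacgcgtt
The 2 genes with the match stood far apart in level and ratio, Chac1 at a mean of 36.6 TPM and Asns at 0.98 TPM. A match in these letters is a description of the window, and a missing match says only that the letters are not in it.

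Asns makes asparagine and is a classic target of ATF4 under amino acid shortage (ENSMUSG00000029752.12, chromosome 6, 7675169 to 7693254, minus strand). It had 0.83 TPM in replicate 2 and 1.13 TPM in replicate 1, from 43 and 40 counts. The log2 ratio of 0.15 had an interval of -0.50 to 0.81, and its sign turned on deposited TPM and in the kallisto-layout table, so no direction can be given. Psat1, the aminotransferase of serine synthesis (ENSMUSG00000024640.9, chromosome 19, 15904678 to 15947337, minus strand), had 0.67 TPM in replicate 2 and 0.86 TPM in replicate 1, from 32 and 34 counts. Its ratio of -0.04 had an interval of -0.78 to 0.70, and a difference below that size was not detectable at this depth. Both amino acid enzymes thus sat at or under about 1 TPM in this muscle, while Atf4 stood among the upper genes.

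Trib3, a pseudokinase that binds ATF4 and Akt and damps both (ENSMUSG00000032715.9, chromosome 2, 152337422 to 152344032, minus strand), had 0.67 TPM in replicate 2 and 0.90 TPM in replicate 1. Its 26 counts in replicate 2 and 41 in replicate 1 gave a log2 ratio of -0.60, with an interval of -1.37 to 0.14 that takes in 0. The kallisto-layout table gave -0.77 with an interval of -1.55 to -0.05, which does not. Its relatives were more abundant: Trib2 stood at 6.72 TPM in replicate 2 and 6.22 TPM in replicate 1, which was 10.0-fold and 6.91-fold the level of Trib3. Trib1 was 5.94-fold and 3.99-fold the level of Trib3 in replicates 2 and 1.

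Ddit4, which encodes REDD1, an inhibitor of the growth kinase complex mTORC1 that glucocorticoids also induce in muscle (ENSMUSG00000020108.4, chromosome 10, 59949669 to 59951834, minus strand), had 5.70 TPM in replicate 2 and 4.73 TPM in replicate 1. The 256 counts in replicate 2 against 200 in replicate 1 gave a log2 ratio of 0.41 with an interval of 0.14 to 0.68. Its paralog Ddit4l, or REDD2, was the abundant form, with 111 TPM in replicate 2 and 125 TPM in replicate 1. That was 19.4-fold and 26.5-fold the level of Ddit4 in replicates 2 and 1.

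Sesn2, a leucine-binding inhibitor of mTORC1 (ENSMUSG00000028893.8, chromosome 4, 132492032 to 132510501, minus strand), had 0.92 TPM in replicate 2 and 1.10 TPM in replicate 1. The log2 ratio was -0.13, with an interval of -0.57 to 0.31. Sesn1 and Sesn3, the other sestrins, stood above it in both libraries. Sesn1 was 5.79-fold and 6.24-fold and Sesn3 was 7.91-fold and 8.24-fold the level of Sesn2 in replicates 2 and 1. For all 3 of these inhibitor genes, then, a paralog outside the chosen gene set exceeded the chosen gene in TPM in each library.

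The transcripts behind these levels were mostly protein-coding forms. The 10 genes have 33 annotated transcripts, and Chac1, Ddit4 and Sesn2 have 1 each. By the mean of the 2 libraries the same transcript led in the RSEM table and in the kallisto-layout table for all 10. In replicate 1 of the RSEM table alone, Psat1-207 stood at 40.7% and Psat1-205 at 39.5%. It took at least 90% of the gene's TPM on average for 6 genes in the RSEM table and 4 in the kallisto-layout table. Atf4-201 took 97.0 ± 0.84% of Atf4 in the RSEM table and 88.5 ± 9.82% in the kallisto-layout table. The short Atf4-202 was listed at 0 in the RSEM table, but at 15.8% in replicate 2 and 3.0% in replicate 1 in the kallisto-layout table. Atf5 differed most among the transcription factors: Atf5-201 took 93.8 ± 3.18% in the RSEM table and 72.1 ± 9.48% in the kallisto-layout table. Ddit3-201 took 96.6% and 95.4% on average in the 2 tables. Xbp1-204 took 10.2% in replicate 2 and 5.49% in replicate 1 in the RSEM table, and 14.7% and 8.80% in the kallisto-layout table. For Psat1 no transcript reached a majority on average, with Psat1-205 leading at 47.0 ± 10.5% in the RSEM table, from few counts.

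**Figure D4:**
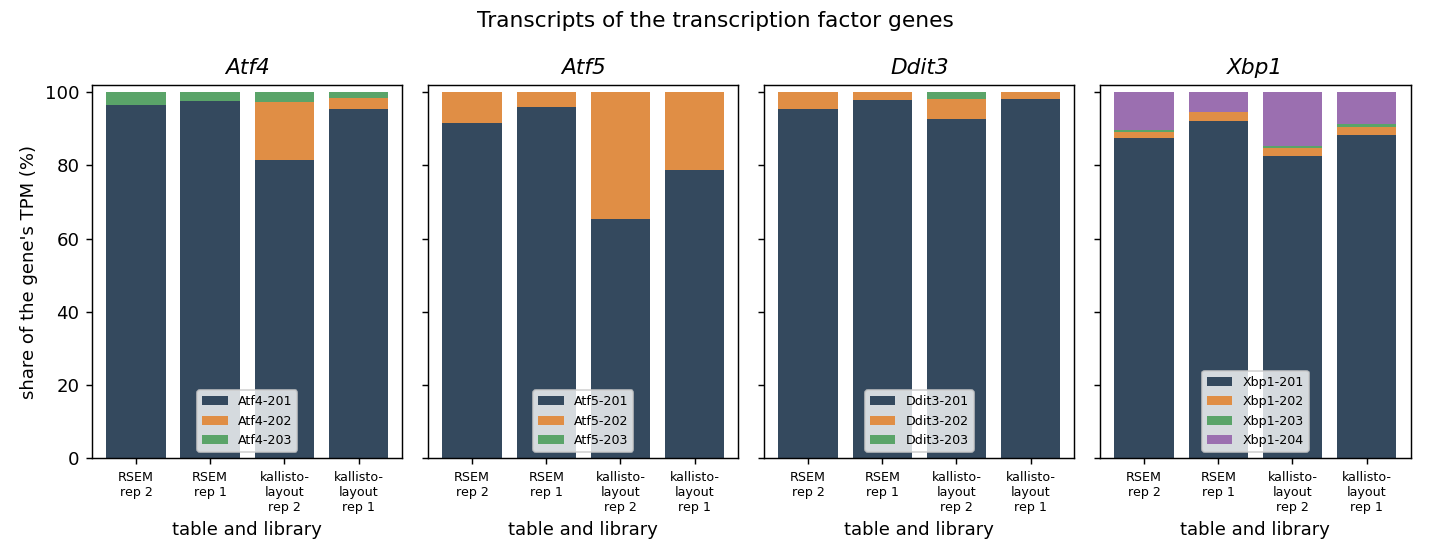
Stacked bars give the share of each gene's TPM (%) taken by each annotated transcript of Atf4, Atf5, Ddit3 and Xbp1, in the RSEM table and the kallisto-layout table, replicate 2 left of replicate 1. The first transcript fills most of every bar, and Atf5-202 takes 34.6% and 21.2% in the kallisto-layout table.

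Gene levels depended little on the table. None of the 6 genes at 1 TPM or more differed by 1.5-fold between the tables in both libraries, against 2.66% of 10508 genes. In the kallisto-layout table the mean TPM lay within 1 SD of the gene table for 8 of the 10 genes. The exceptions were Ddit4, at 4.49 TPM there, and Sesn2, at 0.867 TPM. The posterior SD of the counts was 0 for all 10, so none carried reads divided with other genes.

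The rest of the pathway was described from 12 lists of 175 genes in all, 159 of which reached 1 TPM in both libraries. Of the 149 with a mean count of at least 100, 1 was higher in replicate 2 by 1.5-fold and none was lower, beside the 0.636% and 0.595% of all genes given above. The gene was Cebpd, encoding a C/EBP transcription factor that glucocorticoids and inflammation induce, with 4.04 TPM in replicate 2 and 2.67 TPM in replicate 1. Its log2 ratio was 0.73 with an interval of 0.50 to 0.97. With deposited TPM and a pseudocount of 0.1, Cebpa and Edem1 were past 1.5-fold, and Cebpd fell just short through the pseudocount.

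The upstream machinery was expressed throughout, with 18 of 18 genes at 1 TPM or more. The list held the eIF2 kinases, the eIF2 subunits and related genes such as Eif2b1, Ppp1r15a and Dele1. Eif2ak1, the heme-regulated kinase that also senses mitochondrial stress, was the most abundant of the 4 kinases, at 11.6 TPM in replicate 2 and 12.4 TPM in replicate 1. Eif2ak3, encoding the endoplasmic reticulum kinase PERK, had 1.11 TPM in replicate 2 and 1.55 TPM in replicate 1. Eif2s2, a subunit of eIF2, led the list at 49.4 TPM in replicate 2 and 51.9 TPM in replicate 1. The median log2 ratio of the list was 0.06, with 13 genes above 0 and 5 below, a split that turned to 6 above and 12 below on deposited TPM.

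Among ATF4 partners and related factors, 12 of 13 genes reached 1 TPM. Nfe2l1, a factor that controls proteasome genes, led with 234 TPM in replicate 2 and 268 TPM in replicate 1. Cebpb, a partner of ATF4, had 33.3 TPM in replicate 2 and 33.5 TPM in replicate 1, and its scaled counts gave a log2 ratio of 0.13 with an interval of 0.02 to 0.25. Cebpa stood lowest in ratio, at -0.46 with an interval of -0.72 to -0.21.

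Of the 16 genes of amino acid synthesis and the folate cycle, 12 reached 1 TPM, and the abundant ones were Glul, Got1 and Gpt2, enzymes of glutamine and transamination in muscle. Glul, glutamine synthetase, had 157 TPM in replicate 2 and 149.7 TPM in replicate 1. The serine pathway enzymes Phgdh and Psph, named here because they flank Psat1 in that pathway, were lower: Phgdh had 0.78 TPM in replicate 2 and 2.07 TPM in replicate 1, and Psph 5.56 TPM in replicate 2 and 6.72 TPM in replicate 1. Of 15 amino acid transporters 9 reached 1 TPM. Slc38a4 led at 43.5 TPM in replicate 2 and 60.5 TPM in replicate 1 and had the lowest log2 ratio of its list, -0.42. Slc7a2, a transporter of cationic amino acids, had the highest of those whose mean count reached 100, 0.34 with an interval of 0.24 to 0.44. The list's median was 0.21, with 9 of 13 genes above 0, and lay above 0 on every scaling tried, from 0.09 on deposited TPM to 0.30 with spike-in totals.

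All 20 cytosolic aminoacyl-tRNA synthetases, which charge tRNA and are in part ATF4 targets, reached 1 TPM, with a median of 21.9 TPM in replicate 2 and 24.3 TPM in replicate 1. Their ratios spread little, from -0.15 for Wars to 0.13 for Iars. Of the 25 genes of the unfolded protein response all reached 1 TPM. The chaperone genes Calr and Hspa5 led, Hspa5 at 60.0 TPM in replicate 2 and 69.1 TPM in replicate 1. In this list 8 genes were above 0 and 17 below with a median of -0.02, and the split became 19 above and 6 below with spike-in totals. Manf, a secreted factor induced by endoplasmic reticulum stress, had the lowest ratio of the genes whose mean count reached 100, -0.34 with an interval of -0.62 to -0.08.

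The secreted signals of the mitochondrial stress response were scarcely seen. Fgf21 was listed at 0 in both libraries, and 0 of 35412240 counts in replicate 2 allows up to 3 counts, for counting error only. Gdf15 was listed at 0.08 TPM in replicate 2 and 0 in replicate 1. Both were named for their role in muscle and not by their rank. Vegfa and Mstn, encoding the vessel growth factor and myostatin, were the abundant members of that list, with Mstn at 25.8 TPM in replicate 2 and 27.3 TPM in replicate 1.

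Targets of neighbouring pathways that share Ddit4, Sesn2 or Chac1 were also followed. Of 18 glucocorticoid and FoxO targets, 5 were above 0 and 13 below with a median of -0.06, and 10 above and 8 below with spike-in totals. Trim63, the muscle ubiquitin ligase MuRF1, had 78.8 TPM in replicate 2 and 100.5 TPM in replicate 1. Zbtb16 had the lowest ratio there, -0.40, and Cebpd, at 0.73, the highest, beside 0.41 for Ddit4. Of 12 p53 targets, 8 were above 0 with a median of 0.08, and 5 on deposited TPM, with Btg2 highest at 0.50. Of 17 genes of mTORC1 and its regulators, 10 were above 0 with a median of 0.04, and 3 on deposited TPM, with Rptor lowest at -0.27. Of 11 glutathione cycle genes, 8 reached 1 TPM and Gpx4, the lipid peroxide reductase, led with 241 TPM in replicate 2 and 244 TPM in replicate 1. No gene of that list was past 1.5-fold at a mean count of at least 100.

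**Figure D5:**
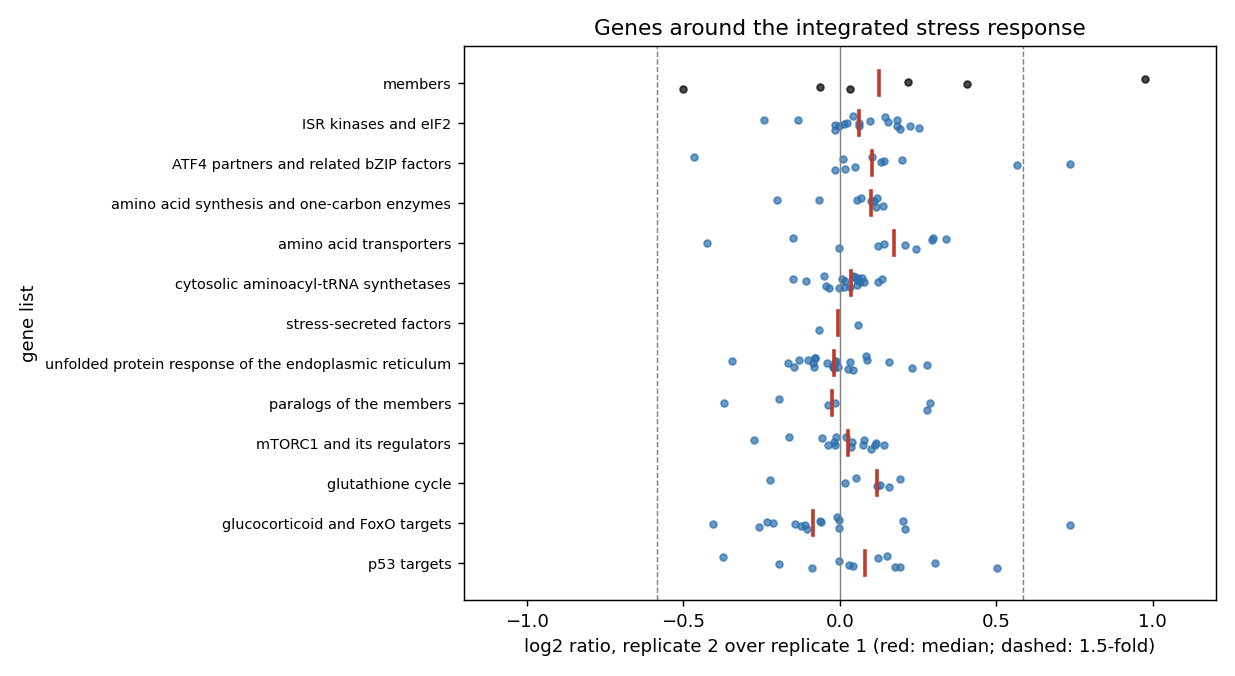
Each point is a gene whose mean count reached 100, placed by its log2 ratio of replicate 2 over replicate 1, with 1 row per list, a red bar at the median of the plotted genes and dashed lines at 1.5-fold. Of the plotted genes, Chac1 (top row, 0.98) and Cebpd (in 2 lists, 0.73) lie past a dashed line.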

How the data were processed

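Total RNA of 2 gastrocnemius libraries was analysed. Per the labels' protocols, 300 ng of RNA entered a directional kit with ERCC spike-ins and ribosomal RNA reduction. Each library had 3 deposited tables on mm10: an RSEM gene-level layout (gene table), its transcript counterpart (RSEM table) and a transcript table laid out as kallisto writes it. Per the file headers, the deposited gene and RSEM tables hold expected counts, TPM and the posterior SD of counts, and the kallisto-layout table holds estimated counts and TPM, here summed per gene. Identifiers match GENCODE M21. For the aligner, program versions and strand setting, nothing is given in the sources used here. Gene totals were 35412240 (replicate 2) and 35163970 (replicate 1) expected counts; 96 ERCC rows were left out.

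Levels are deposited TPM. Ratios were formed from rounded expected counts with TMM factors (edgeR 4.0.16, genes averaging 10 counts or more) and a prior of 0.5, with exact binomial 95% intervals (scipy 1.17.1). Counts of calls used a mean count of at least 100 unless stated. The pseudocount for TPM ratios was 0.1. The contrast step was tested on simulated data. R 4.3.3, DESeq2 1.42.0 (size factors as an alternative), numpy 2.4.6, pandas 2.3.3 and matplotlib 3.10.9 were used.

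The genes, lists and markers were chosen with earlier results of these data known. Named genes are all 10 members and, per list, among the 3 highest in TPM, the highest and lowest ratio at a mean count of at least 100 and any past 2-fold. The eIF2 kinases, Fgf21, Gdf15, Phgdh, Psph, Mars, Nup62, Il4i1 and the paralogs were named for their role, overlap or relation. Alternatives were other scalings, count and TPM minimums, another prior, the other tables and each library alone. Alignments and signal tracks were not used here.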

Additional observations from a re-analysis of the deposited data

How the results depend on the processing

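No paired analysis was possible because the series has 1 group. None of the 6 genes whose mean count reached 100 differed by 2-fold, and with spike-in totals 1 did, Chac1, at a log2 ratio of 1.07. At 1.5-fold 1 gene was counted, and 2 on deposited TPM (Chac1 and Ddit3), 2 at a mean count of at least 10 and 2 with no minimum (Chac1 and Trib3). Chac1 had a log2 ratio of 0.98, and of 0.84 on deposited TPM, which lies outside its counting interval; the whole scale moved by -0.13 there. For the other 9 genes, 60 of 63 ratios under other settings stayed inside the main interval and 3 did not, of Atf4 (0.13 with spike-in totals, -0.11 on deposited TPM) and Atf5 (-0.20 on deposited TPM). The 6 genes at 1 TPM in both libraries became 10 at a minimum of 0.5 TPM and 5 at 5 TPM, and 6 to 8 with a single library. Genes with a leading transcript of at least 90% numbered 6, 4 in the kallisto-layout table, and 7 to 8 with a single library. Of the pathway genes 1 was past 1.5-fold (Cebpd), against 3 with spike-in totals (Cebpd, Fos and Btg2), 2 on deposited TPM with its pseudocount of 0.1 (Cebpa and Edem1, Cebpd falling short through the pseudocount) and 2 in the kallisto-layout table (Cebpd and Fos). The cause of these shifts was not tested beyond the scaling itself. Depth limits Asns, Trib3, Psat1 and Sesn2, whose mean counts were under 100.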

Other observations

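Some genes of the lists with fewer than 100 mean counts held larger ratios, named here after their values were seen. They were picked from the list genes left when 149 of the 175 had reached 100. Ratios past 1.5-fold in either direction were also more common among all genes at low counts. They made up 9.01% of 14370 genes at a mean count of at least 10, against 1.23% of 9742 at 100. Phgdh, the first enzyme of serine synthesis and the step before Psat1, had 0.78 TPM in replicate 2 and 2.07 TPM in replicate 1. Its scaled counts, from 38 in replicate 2 and 79 in replicate 1, gave a log2 ratio of -0.99 (interval -1.60 to -0.43). Its counts included reads divided with other genes, which the interval does not cover, and the kallisto-layout table gave -0.62. Psat1 itself, at -0.04, had an interval that reached -0.78 and so overlapped it. Angptl4, a secreted lipase inhibitor induced by fasting and by PPAR factors, had 1.03 TPM in replicate 2 and 2.46 TPM in replicate 1. The ratio of its scaled counts was -0.93 (-1.43 to -0.45). Ggt5, a gamma-glutamyl cleaving enzyme of the glutathione list, had 0.84 TPM in replicate 2 and 1.12 TPM in replicate 1. Its 43 counts in replicate 2 and 77 in replicate 1 gave, after scaling, -0.78 (-1.36 to -0.23), a wider difference than in TPM. Atf3, a stress-induced factor downstream of ATF4, had 1.47 TPM in replicate 2 and 0.84 TPM in replicate 1. By scaled counts its ratio was 0.67 (0.07 to 1.29). Sdf2l1, an endoplasmic reticulum protein induced with chaperones, had 1.35 TPM in replicate 2 and 2.37 TPM in replicate 1. By scaled counts its ratio was -0.66 (-1.30 to -0.06). These rest on 37 to 107 counts per library and have no replicate check.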
